A study of Mus musculus with 16 samples.

Results

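The comparison described here is Spi1 binding in KO-iMOS against WT-iMOS mice, within the condition labelled T2. It rests on 5 of the 16 libraries of the series, namely 2 Spi1 KO-iMOS T2 libraries and 3 Spi1 WT-iMOS T2 libraries, chosen by their titles. All were CUT&Tag libraries, in which a transposase tethered to an antibody cuts and tags DNA near the bound factor, and all came from MPP3 cells, the myeloid-biased subset of mouse multipotent progenitors, sorted here from marrow. The study set out to learn how Bcl11a acts in these cells. The genotype label of each library joins KO-iMOS or WT-iMOS with T1 or T2, and the titles also carry 3m. Nothing in the labels explains iMOS, T1, T2 or 3m, names the gene that KO-iMOS mice lack, or tells whether replicates came from separate animals. Any p-value below therefore measures only the spread between these samples, which may be technical. For some steps 2 further sets of libraries were used that played no part in choosing regions. These were the Spi1 T1 libraries (2 KO-iMOS and 3 WT-iMOS) and 3 Bcl11a libraries of WT-iMOS T2. The names of the peaks inside the lists begin with PKO in KO-iMOS T2 and PMG in WT-iMOS T2, but with PWT in KO-iMOS T1 and PWG in WT-iMOS T1. The labels do not explain these prefixes, and groups follow the labels throughout.

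Spi1, also called PU.1, is an ETS-family transcription factor that binds purine-rich sites around a GGAA core and is needed for the myeloid and lymphoid lineages. It acts at gene starts and, more often, at distal enhancers of myeloid genes. Bcl11a is a zinc finger factor that recruits repressor complexes and is best known for lymphoid development and the silencing of fetal globin genes.

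The data are peak lists, 1 per library, on mm10 coordinates. Peaks of the 5 Spi1 T2 lists that shared at least 1 bp were merged into 21432 regions. A region with a peak in both KO-iMOS lists and in none of the 3 WT-iMOS lists is called KO-only here, and a region with a peak in all 3 WT-iMOS lists and in neither KO-iMOS list is called WT-only. There were 1246 KO-only regions (5.81% of all) and 700 WT-only regions (3.27%), while 1969 (9.19%) were in all 5 lists. These classes are defined by presence, so their presence is a description and was not tested. For a single region, Fisher's exact test cannot go below p = 0.1 with 2 against 3 lists. Just outside the definitions lay 1346 regions in both KO-iMOS lists and 1 WT-iMOS list, 6202 in 1 KO-iMOS list alone, 625 in all 3 WT-iMOS lists and 1 KO-iMOS list, and 1071 in 2 WT-iMOS lists and no KO-iMOS list.

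The promoters of 6 genes show what the classes look like where a region covers a gene start. For each class the 2 genes whose regions ranked highest within the lists are given. Sequences are from RefSeq on GRCm38.p6 (mm10), 250 bases before to 50 after the gene start, written 5′ to 3′ on the gene's strand. Capitals mark GAGGAAG, a core often bound by Spi1, or CCGGAAG, a core of many ETS factors, read on either strand, so that CTTCCTC is GAGGAAG on the opposite strand. The motifs share the letters GGAAG.
Kdm4a, KO-only, chr4:118179994-118180293, minus strand: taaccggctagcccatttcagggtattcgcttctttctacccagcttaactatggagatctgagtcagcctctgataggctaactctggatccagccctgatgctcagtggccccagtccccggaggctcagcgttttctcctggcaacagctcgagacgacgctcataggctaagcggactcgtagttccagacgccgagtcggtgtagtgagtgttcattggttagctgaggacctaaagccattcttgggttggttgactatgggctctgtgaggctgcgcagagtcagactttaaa
Zfp212, KO-only, chr6:47920318-47920617, plus strand: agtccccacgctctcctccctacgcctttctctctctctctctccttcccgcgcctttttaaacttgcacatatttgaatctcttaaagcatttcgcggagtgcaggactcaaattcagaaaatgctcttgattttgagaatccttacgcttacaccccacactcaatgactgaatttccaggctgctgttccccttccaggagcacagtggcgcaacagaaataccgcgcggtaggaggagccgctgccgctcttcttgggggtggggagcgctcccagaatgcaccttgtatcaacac
Prkab1, WT-only, chr5:116024379-116024678, minus strand: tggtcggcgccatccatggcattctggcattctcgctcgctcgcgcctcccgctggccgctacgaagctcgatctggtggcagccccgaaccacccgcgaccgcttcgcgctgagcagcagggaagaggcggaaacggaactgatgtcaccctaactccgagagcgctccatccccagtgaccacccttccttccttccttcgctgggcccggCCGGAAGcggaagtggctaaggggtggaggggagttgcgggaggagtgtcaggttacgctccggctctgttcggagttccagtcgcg
Atxn7l1, WT-only, chr12:33315155-33315454, plus strand: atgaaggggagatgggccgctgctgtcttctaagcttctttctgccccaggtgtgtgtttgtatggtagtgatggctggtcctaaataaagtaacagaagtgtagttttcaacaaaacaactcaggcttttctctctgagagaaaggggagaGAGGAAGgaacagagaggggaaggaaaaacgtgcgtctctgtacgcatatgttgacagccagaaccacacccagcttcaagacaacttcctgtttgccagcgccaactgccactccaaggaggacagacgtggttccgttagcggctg
Mob1a, all 5 lists, chr6:83325789-83326088, plus strand: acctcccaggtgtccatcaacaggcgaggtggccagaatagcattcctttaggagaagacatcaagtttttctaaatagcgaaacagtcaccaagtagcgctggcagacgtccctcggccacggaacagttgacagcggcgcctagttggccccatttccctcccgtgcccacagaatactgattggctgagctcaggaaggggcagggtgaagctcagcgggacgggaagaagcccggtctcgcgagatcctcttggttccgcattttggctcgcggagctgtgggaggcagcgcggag
Rps19, all 5 lists, chr7:24884342-24884641, plus strand: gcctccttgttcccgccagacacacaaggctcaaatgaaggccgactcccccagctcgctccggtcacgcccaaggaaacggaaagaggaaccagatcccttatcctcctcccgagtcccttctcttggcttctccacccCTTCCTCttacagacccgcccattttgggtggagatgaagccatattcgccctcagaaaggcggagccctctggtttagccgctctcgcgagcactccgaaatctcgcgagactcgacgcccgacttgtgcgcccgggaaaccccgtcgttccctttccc

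At Kdm4a, which encodes a histone lysine demethylase, the peaks had a −log10 p of 34.5 and 18.8 in KO-iMOS replicates 1 and 2, and no WT-iMOS T2 list had a peak. At Zfp212, a zinc finger gene, the KO-iMOS values were 35.2 and 18.5, again with no WT-iMOS peak. Neither promoter held a marked motif, and at both 1 of 3 WT-iMOS T1 lists had a peak besides both KO-iMOS T1 lists. At Prkab1, a subunit of the energy sensor AMPK, no KO-iMOS list had a peak and the WT-iMOS values were 31.8, 21.2 and 10.98. At Atxn7l1, an ataxin-like gene, no KO-iMOS list had a peak and the WT-iMOS values were 18.4, 12.99 and 10.9. In T1, however, both KO-iMOS lists and 2 of 3 WT-iMOS lists had a peak at each of these WT-only promoters. The promoter of Rps19, a ribosomal protein gene, was among the strongest regions common to all lists, with 114 and 97.9 in KO-iMOS and 114, 68.8 and 59.7 in WT-iMOS. Mob1a, a Hippo pathway adaptor, had 145 and 55.9 in KO-iMOS and 125, 89.5 and 65.4 in WT-iMOS. The −log10 p is the authors' value for each peak, and it grows with depth, so it ranks peaks within a list only.

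Promoters at which a region covered a listed gene start numbered 406 in the KO-only class, 9 in the WT-only class and 602 among regions of all 5 lists, out of 21238 listed. The letters GAGGAAG were present on either strand in 13.8% of the KO-only promoters (56, exact binomial 95% interval 10.6 to 17.5%), in 2 of the 9 WT-only promoters and in 24.3% of those in all 5 lists (20.9 to 27.9%), compared with 13.6% of all listed promoters. The other core, CCGGAAG, was in 20.4% (16.6 to 24.7%) of the KO-only promoters, in 5 of 9 WT-only promoters and in 23.4% (20.1 to 27.01%) of those in all lists, against 11.6% overall. A common GC-rich box, GGGCGG, was in 66.0%, 2 of 9 and 67.3% of them in the same order, against 46.2% overall. With lists of equal length, described below, GAGGAAG was in 20.3% of 237 KO-only promoters, 28.9% of 45 WT-only promoters and 25.1% of 479 promoters in all lists. Under the same setting CCGGAAG was in 16.5%, 55.6% (40.0 to 70.4%) and 23.4% of them, and GGGCGG in 73.0%, 46.7% (31.7 to 62.1%) and 66.8%. The promoters under KO-only regions had a median of 22 CpG dinucleotides in 300 bases, those under WT-only regions 14, those in all lists 21, and all listed promoters 13. Cut to equal length, the lists gave medians of 22 for KO-only, 21 for WT-only and 20 for all lists. These intervals cover counting error only, and a match is a string of letters, not a measured site.

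The lists differed in length within each genotype. KO-iMOS T2 replicates 1 and 2 held 14814 and 6337 peaks on assembled chromosomes, and WT-iMOS T2 replicates 1, 2 and 3 held 12126, 6730 and 4926. The genotypes overlapped in length (exact two-sided permutation p = 0.6), and read depth is unknown because the lists carry no counts. Because list length can move such measures, comparisons were repeated with each list cut to its 4926 strongest peaks by −log10 p, the length of the shortest. The Jaccard index of covered bases was 0.337 between both KO-iMOS lists, 0.136 to 0.337 over the 6 pairs of a KO-iMOS with a WT-iMOS list, and 0.259 to 0.390 over the 3 pairs of WT-iMOS lists. The index depends on list length, and the highest pair across genotypes joined the longest list of each. It was not computed at equal length, so likeness within a genotype cannot be read from it. Median peak width was 467 and 490 bp in KO-iMOS, against 399, 360 and 338 bp in WT-iMOS, and the narrowest peak of each list was 260 and 321 bp in KO-iMOS, against 213, 208 and 202 bp in WT-iMOS. Median width at equal length was 617 and 522 bp in KO-iMOS, against 524, 403 and 338 bp in WT-iMOS, and the genotypes overlapped (exact two-sided permutation p = 0.4). The part of peak width in the results below was not tested. Sex chromosomes also differed with genotype. The X chromosome held 1.68% and 1.53% of the peaks in KO-iMOS, against 2.18%, 2.45% and 2.38% in WT-iMOS. In the first 2 Mb of the Y chromosome, a window chosen after the values were seen, KO-iMOS lists had 3 and 1 peaks and WT-iMOS lists had 0. On the rest of the Y chromosome KO-iMOS lists had 6 and 3 peaks, against 16, 13 and 8 in WT-iMOS. In T1 the first 2 Mb of the Y chromosome held 5 and 6 peaks in KO-iMOS and 0 in each WT-iMOS list. The Bcl11a lists of WT-iMOS T2 also had 0 there. The labels give no sex, so genotype and sex of the animals cannot be told apart. The part of sex in the results below was not tested.

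KO-iMOS Spi1 peaks lay nearer to genes than WT-iMOS peaks. Peak summits were within 1 kb of a gene boundary, either the start or the end of a protein-coding gene, for 34.9% and 32.3% of the peaks in KO-iMOS replicates 1 and 2, against 23.5%, 21.9% and 17.9% in WT-iMOS replicates 1 to 3. The genotypes did not overlap. The mean was 33.6% ± 1.81 in KO-iMOS (SD, n = 2) and 21.1% ± 2.91 in WT-iMOS (SD, n = 3), a difference of 12.5 percentage points. The exact two-sided permutation p was 0.2, the smallest that 2 against 3 libraries allow, and 0.255 after Benjamini-Hochberg adjustment over 14 measures per library. No comparison of 2 against 3 libraries can therefore pass 0.05. With lists of equal length the shares were 32.8% ± 1.25 (SD, n = 2) in KO-iMOS and 21.6% ± 3.27 (SD, n = 3) in WT-iMOS, still without overlap. Conversely, summits over 10 kb from any gene made up 21.1% and 22.3% of the KO-iMOS peaks, against 28.2%, 30.0% and 32.9% of the WT-iMOS peaks. More KO-iMOS summits were inside genes, with 57.8% and 55.8% in KO-iMOS against 51.7%, 51.1% and 49.5% in WT-iMOS. Inside genes but over 1 kb from a boundary the order was the other way, with 35.4% and 35.8% in KO-iMOS and 37.9%, 37.98% and 39.4% in WT-iMOS. The share of all 21774 protein-coding genes with a peak in the gene or within 10 kb of it was 48.2% and 25.2% in KO-iMOS, against 35.9%, 22.4% and 16.0% in WT-iMOS, and here the genotypes overlapped (exact two-sided permutation p = 0.4). The difference in that share was 11.9 percentage points with all libraries, 0.424 without KO-iMOS replicate 1 and 23.4 without KO-iMOS replicate 2. At equal length the shares were 20.6% and 20.3% in KO-iMOS, against 18.04%, 17.9% and 16.0% in WT-iMOS.

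**Figure D1:**
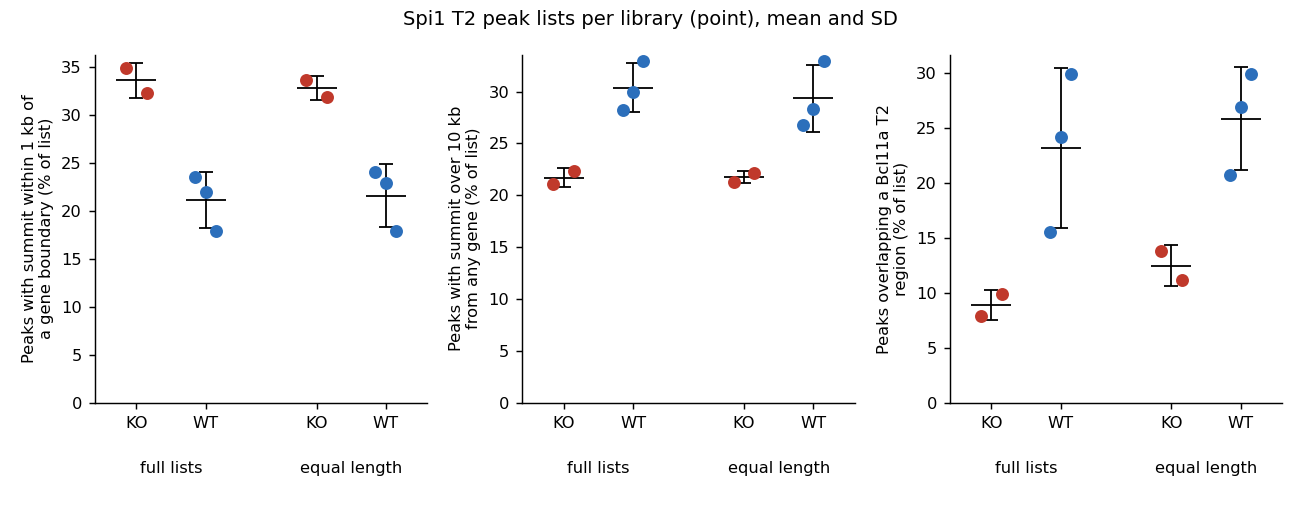
Share of Spi1 T2 peaks near a gene boundary (left), far from genes (middle) and overlapping a Bcl11a T2 region (right), in percent of each list, for full lists and lists of 4926 peaks. Points are libraries, bars are mean and SD; KO-iMOS points (n = 2) lie above all WT-iMOS points (n = 3) in the left panel and below them in the others.

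The same libraries differed in how far Spi1 coincided with Bcl11a. Bcl11a T2 regions, 2496 in all, were those with a peak in at least 2 of the 3 Bcl11a lists of WT-iMOS T2. The series has no Bcl11a library of KO-iMOS mice. Spi1 peaks overlapping a Bcl11a region made up 7.93% and 9.88% of the KO-iMOS lists, against 15.5%, 24.2% and 29.9% of the WT-iMOS lists. All KO-iMOS values were below all WT-iMOS values. The means were 8.91% ± 1.38 (SD, n = 2) in KO-iMOS and 23.2% ± 7.25 (SD, n = 3) in WT-iMOS, with an exact two-sided permutation p of 0.2 and an adjusted value of 0.255. At equal length they were 12.5% ± 1.88 (SD, n = 2) in KO-iMOS and 25.9% ± 4.68 (SD, n = 3) in WT-iMOS. Read from the Bcl11a side, 46.8% and 24.96% of the Bcl11a regions held a KO-iMOS Spi1 peak, while 74.7%, 64.3% and 58.0% held a WT-iMOS Spi1 peak. WT-iMOS replicate 3, with the shortest list, thus covered more Bcl11a regions than KO-iMOS replicate 1, with the longest. At equal length the values were 27.2% and 21.9% in KO-iMOS, against 40.9%, 52.6% and 58.0% in WT-iMOS. The difference in the share of Spi1 peaks, −14.3 percentage points, became −9.16 when Bcl11a replicate 1 was left out. Because Bcl11a came from WT-iMOS material alone, overlap with Bcl11a and overlap with any feature of WT-iMOS libraries cannot be told apart.

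By class, KO-only regions were at gene boundaries more often than WT-only regions. The summit was within 1 kb of a boundary in 37.0% (exact binomial 95% interval 34.3 to 39.7%) of the 1246 KO-only and in 3.86% (2.56 to 5.56%) of the 700 WT-only regions, next to 30.1% of the regions in all 5 lists and 26.8% of all merged regions. The KO-only boundary share was not particular to that class. It was 37.3% in regions of 1 KO-iMOS list alone and 33.6% in regions of both KO-iMOS lists and 1 WT-iMOS list. In regions of 1 WT-iMOS list alone the share was 8.56%. Over 10 kb from any gene were 21.8% (19.6 to 24.2%) of the KO-only and 43.0% (39.3 to 46.8%) of the WT-only regions, against 26.8% of all merged regions. The median distance from summit to the nearest boundary was 6330 bp in KO-only and 29824.5 bp in WT-only regions. Median region width was 583 bp for KO-only, 544 bp for WT-only and 806 bp for regions in all lists. The WT-only share at boundaries was 11.2% (8.75 to 14.2%) at equal length and 11.4% without KO-iMOS replicate 1. The KO-only share was 36.1% (32.6 to 39.7%) at equal length, and 33.6% to 38.3% when each of the 5 libraries was left out. On autosomes alone the boundary shares were 37.0% of 1218 KO-only and 3.92% of 664 WT-only regions.

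**Figure D2:**
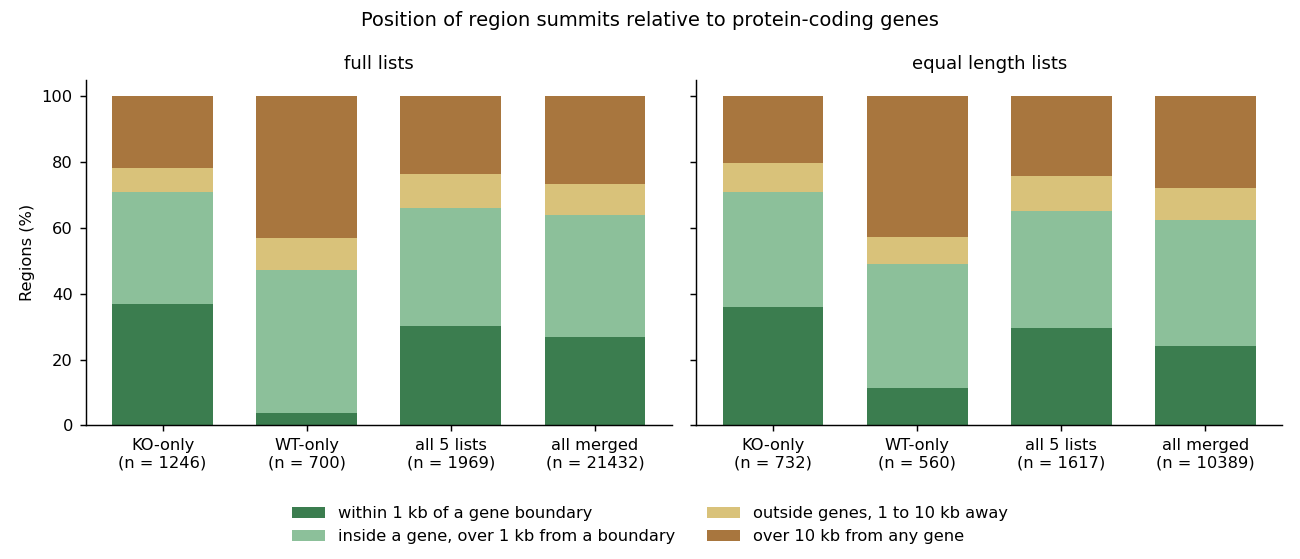
Position of region summits relative to protein-coding genes in percent of each class, for full lists (left) and lists of equal length (right). Of the KO-only regions 37.0% are within 1 kb of a gene boundary, against 3.86% of the WT-only regions with full lists, and 36.1% against 11.2% at equal length.

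Bcl11a overlap ran the other way. A Bcl11a T2 region overlapped 35 KO-only regions (2.81%, exact binomial 95% interval 1.96 to 3.89%) and 486 WT-only regions (69.4%, 65.9 to 72.8%). Regions in all 5 lists stood between at 20.3%, and all merged regions at 10.54%. On autosomes the overlap was 2.87% of KO-only and 69.4% of WT-only regions. The shares moved with the number of lists of each genotype. Among regions in both KO-iMOS lists the overlap was 2.81% with no WT-iMOS list, 5.20% with 1, 9.77% with 2 and 20.3% with 3. Among regions in all 3 WT-iMOS lists it was 20.3% with both KO-iMOS lists, 44.6% with 1 and 69.4% with none. Among regions without a KO-iMOS peak it was 6.88% with 1 WT-iMOS list, 27.3% with 2 and 69.4% with 3. With full lists the contrast was present both within 1 kb of a gene boundary and farther from it, where many regions were still inside genes. Farther than 1 kb from a boundary, 1.91% of 785 KO-only regions and 70.1% of 673 WT-only regions overlapped Bcl11a, and within 1 kb 4.34% of 461 KO-only and 51.9% (31.9 to 71.3%) of 27 WT-only regions did. At equal length the overlap was 6.15% (4.52 to 8.14%) of KO-only and 59.1% (54.9 to 63.2%) of WT-only regions. Farther than 1 kb from a boundary it was then 3.42% of 468 KO-only and 64.0% of 497 WT-only regions. Within 1 kb it was 10.98% (7.48 to 15.4%) of 264 KO-only and 20.6% (11.5 to 32.7%) of 63 WT-only regions. Those 2 intervals overlapped, and 12.6% of all merged regions within 1 kb of a boundary overlapped Bcl11a. The KO-only share was 1.67% without KO-iMOS replicate 2, 1.44% without Bcl11a replicate 3 and 1.52% without Bcl11a replicate 2.

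**Figure D3:**
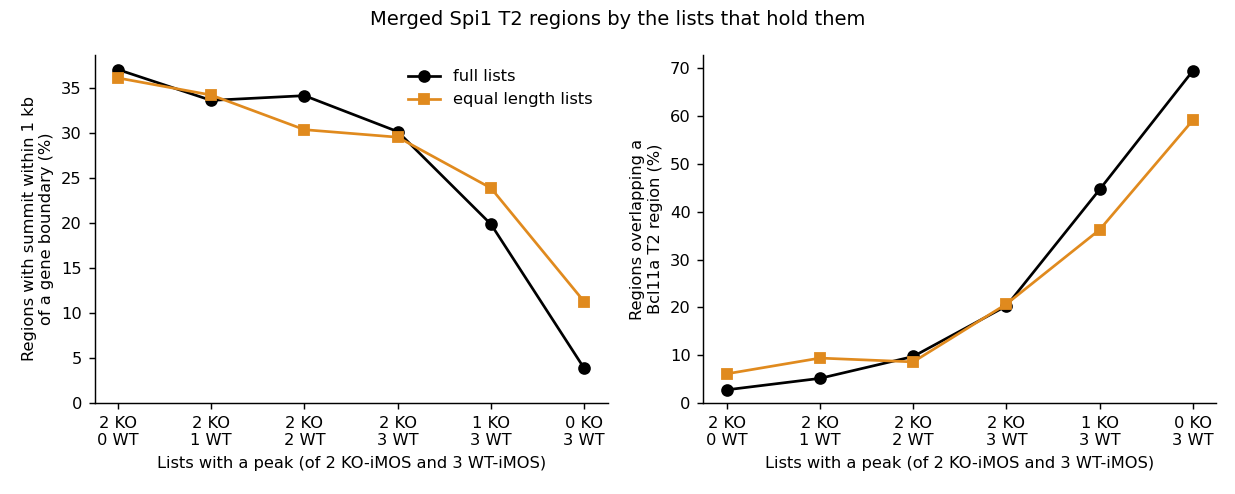
Share of merged Spi1 T2 regions within 1 kb of a gene boundary (left) and overlapping a Bcl11a T2 region (right), in percent, for the 6 patterns with a peak in all lists of at least 1 genotype, ordered left to right by how many of the 2 KO-iMOS and 3 WT-iMOS lists hold a peak. With full lists the boundary share is 37.0% at the KO-only end and 3.86% at the WT-only end, and the Bcl11a share is 2.81% at the KO-only end and 69.4% at the WT-only end.

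Of the 2496 Bcl11a T2 regions, 33 (1.32%) held Spi1 in both KO-iMOS lists and no WT-iMOS list, and 479 (19.2%) held it in all 3 WT-iMOS lists and no KO-iMOS list. A further 391 (15.7%) held Spi1 in all 5 lists, and 256 (10.3%) in none. Of the 33 Bcl11a regions with KO-iMOS Spi1 alone, 54.5% lay at a gene boundary by the same 1 kb measure, against 2.71% of the 479 with WT-iMOS Spi1 alone.

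The number of regions in a class depended on single libraries and on list length. At equal length there were 732 KO-only (7.05% of 10389 merged regions) and 560 WT-only regions (5.39%), and 1617 (15.6%) were in all 5 lists. The KO-only count was 7010 without KO-iMOS replicate 2 and 2532 without WT-iMOS replicate 1. The WT-only count was 1319 without KO-iMOS replicate 1 and 1246 without WT-iMOS replicate 3. Membership also changed. Of the 1246 KO-only regions 292 were also KO-only at equal length. Of the 732 KO-only regions at equal length, 440 had a WT-iMOS peak in a full list that ranked below the cut of that list. Likewise 297 of the 700 WT-only regions were WT-only at equal length, and 263 of the 560 had a KO-iMOS peak below the cut. Strength was not compared between lists. The median −log10 p of the KO-only peaks was 11.8 and 9.25 in KO-iMOS replicates 1 and 2, at the 52.7 and 32.2 percentiles of those lists. That of the WT-only peaks was 13.5, 12.04 and 11.4 in WT-iMOS replicates 1 to 3, at the 56.3, 52.1 and 51.8 percentiles. Regions in all 5 lists stood at the 91.1 and 78.3 percentiles in KO-iMOS and at the 88.9, 78.8 and 67.6 percentiles in WT-iMOS.

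The T1 libraries did not choose these regions. Their lists held 20177 and 12984 peaks in KO-iMOS T1, against 10696, 6987 and 6648 in WT-iMOS T1, and of all 21432 merged T2 regions 65.0% and 50.2% had a peak in KO-iMOS T1, against 40.4%, 27.7% and 24.5% in WT-iMOS T1. A peak was present at 84.7% and 62.1% of the KO-only T2 regions in KO-iMOS T1 replicates 1 and 2, against 15.5%, 6.18% and 2.01% in WT-iMOS T1 replicates 1 to 3. At WT-only T2 regions it was present in 17.7% and 18.1% of them in KO-iMOS T1, against 86.7%, 77.0% and 85.4% in WT-iMOS T1. The genotypes did not overlap in either class. The difference was 65.5 percentage points for KO-only and −65.1 for WT-only regions, each with an exact two-sided permutation p of 0.2, the smallest possible, and 0.2 after adjustment over 12 tests. With full T2 lists and the T1 lists alone cut to 6648 peaks, all merged regions had a peak in 30.0% and 29.7% of cases in KO-iMOS T1, against 28.3%, 26.9% and 24.5% in WT-iMOS T1. KO-only regions then had one in 28.8% ± 0.624 of cases in KO-iMOS T1 (SD, n = 2) and 4.23% ± 1.92 in WT-iMOS T1 (SD, n = 3), a difference of 24.5 percentage points, so the KO-iMOS share was close to that over all regions. For WT-only regions the difference was −70.5 percentage points. With the T2 lists alone cut it was −35.5 for WT-only regions. With T2 and T1 lists each cut to equal length, KO-only regions had a peak in 68.4% ± 2.90 of cases in KO-iMOS T1 (SD, n = 2) and 15.8% ± 6.90 in WT-iMOS T1 (SD, n = 3). WT-only regions then had one in 30.0% ± 4.80 of cases in KO-iMOS T1 (SD, n = 2) and 87.1% ± 3.95 in WT-iMOS T1 (SD, n = 3). The WT-only difference was −34.3 percentage points when KO-iMOS T2 replicate 1 was left out, and −42.4 without WT-iMOS T2 replicate 3. Region by region, 535 of the 1246 KO-only regions also had a peak in both KO-iMOS T1 lists and no WT-iMOS T1 list, and 335 of the 700 WT-only regions had one in all 3 WT-iMOS T1 lists and no KO-iMOS T1 list. In 151 KO-only and 23 WT-only regions no T1 list had a peak. The labels do not say whether T1 and T2 libraries came from the same mice.

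**Figure D4:**
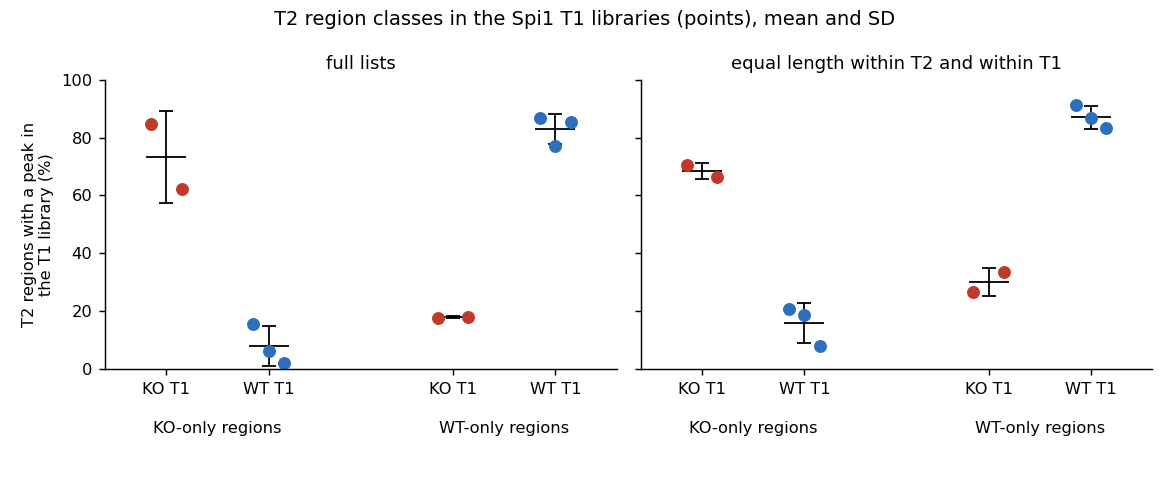
Percent of KO-only and WT-only T2 regions with a peak in each Spi1 T1 library (points; bars are mean and SD, n = 2 KO-iMOS and n = 3 WT-iMOS), for full lists (left) and equal length (right). At KO-only regions the KO-iMOS T1 points lie above the WT-iMOS T1 points, and at WT-only regions they lie below them.

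The genotype differences could also be set side by side in T2 and T1. The near-boundary share differed by 12.5 percentage points in T2 and 10.9 in T1 (difference of differences 1.56, permutation of labels within T1 and T2 over 100 regroupings, two-sided p = 0.84). The share of peaks overlapping Bcl11a T2 differed by −14.3 percentage points in T2 and −14.2 in T1 (difference −0.147, permutation p = 0.96). List length differed by 2648 peaks in T2 and 8470 in T1 (permutation p = 0.44), and the share of genes with a peak by 11.9 and 23.5 percentage points (permutation p = 0.54). Such p-values do not show that T1 and T2 are alike.

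The leading KO-only regions were spread over genes of varied function, at mean within-list percentiles of 87.7 to 94.7. The highest-ranked lay inside Cdk10, a cyclin-dependent kinase gene, at chromosome 8, 123230343 to 123231085, with −log10 p of 38.3 and 32.9 in KO-iMOS and no peak in WT-iMOS. No T1 list had a peak there. A region inside Arhgap35, which encodes a GTPase-activating protein, at chromosome 7, 16570891 to 16571492, had 29.1 and 36.9 in KO-iMOS and no peak in WT-iMOS, and was also found in both KO-iMOS T1 lists and no WT-iMOS T1 list. The region that followed lay on the Y chromosome at 260939 to 261570, far from any annotated protein-coding gene, with 39.9 and 20.5 in KO-iMOS. It is in the first 2 Mb of that chromosome, where no WT-iMOS list of T2 or T1 had a peak, and the sex of the animals is unknown. The next lay inside Fblim1, a filamin-binding adaptor gene (27.4 and 23.8 in KO-iMOS). Those after it were outside genes, with Plekhb2 as the nearest at 458861 bp (28.3 and 22.6), Unc93a2 at 1134 bp (25.7 and 24.3), Tnfaip2, a TNF-induced gene, at 4669 bp (37.1 and 19.05), and Aftph, a vesicle trafficking adaptor gene, at 20588 bp (31.9 and 19.97). Of these 8 regions, 7 were found in both KO-iMOS T1 lists, 1 overlapped Bcl11a (near Unc93a2), and none was within 1 kb of a gene boundary. No KO-only region had a −log10 p above 39.9.

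The leading WT-only regions were narrow and stood at mean within-list percentiles of 98.97 to 99.5. The highest-ranked lay 3286 bp outside Tcstv3, a gene known from early embryos, at chromosome 13, 120321376 to 120321696. It had no peak in KO-iMOS and −log10 p of 636.4, 520.9 and 499.2 in WT-iMOS. A region inside Dop1b at chromosome 16, 93789191 to 93789445, had no KO-iMOS peak and 326.1, 283.7 and 268.3 in WT-iMOS. A region inside Slc45a1, a sugar transporter gene, at chromosome 4, 150644933 to 150645196, had no KO-iMOS peak and 256.3, 195.1 and 172.3 in WT-iMOS. The others were nearest to Dpy19l2, Creb3l1, Gm9631, 1700008P02Rik and Diaph3, between 14945 and 499280 bp away. All 8 were 225 to 321 bp wide, had a peak in all 3 WT-iMOS T1 lists and in no KO-iMOS T1 list, and 7 overlapped Bcl11a, the exception being the one near Dpy19l2. The narrowest peaks of the KO-iMOS T2 lists were 260 and 321 bp, so these widths are not comparable between genotypes. Nor are the −log10 p values, which rank peaks within a list only. In all, 24 of the 700 WT-only regions had a −log10 p above 100 in some list, with a median width of 286 bp, and 22 of them overlapped Bcl11a. No KO-only region had a −log10 p above 100. Without those 24 the WT-only class still overlapped Bcl11a at 68.6% and lay near a boundary at 3.99%. The strongest regions in all 5 lists were stronger still. The first, nearest to Lrrc4c at chromosome 2, 98666253 to 98667330, had 5401 and 3783 in KO-iMOS and 8914, 9126 and 9150 in WT-iMOS. No list of known artefact regions was applied, and their part in these values was not tested.

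By gene, 781 of 21774 protein-coding genes (3.59%) had a peak at the locus, the gene with 10 kb on either side, in both KO-iMOS lists and no WT-iMOS list. The reverse held for 201 genes (0.923%), and 2205 (10.1%) had a peak in all 5 lists. A Bcl11a T2 region was at the locus of 4.35% (3.03 to 6.03%) of the KO-only genes, 72.6% (65.9 to 78.7%) of the WT-only genes and 29.8% of the genes in all lists, against 8.63% of all genes. At equal length the counts were 561 KO-only (2.58%) and 241 WT-only genes (1.11%), with Bcl11a at 10.52% and 52.3% of them, and 1771 genes (8.13%) were in all lists. Leaving out KO-iMOS replicate 2 gave 3470 KO-only genes and leaving out WT-iMOS replicate 1 gave 1838. Leaving out KO-iMOS replicate 1 gave 648 WT-only genes and leaving out WT-iMOS replicate 3 gave 353. A KO-only region was at 6.10% of all genes, a WT-only region at 2.05% and a region in all lists at 8.77%, and at equal length these shares were 3.70%, 1.91% and 7.37%.

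The locus of Spi1 itself was occupied in every list. On chromosome 2, a region within Spi1 from 91082586 to 91083588 had −log10 p of 17.4 and 14.1 in KO-iMOS and 44.5, 26.2 and 24.1 in WT-iMOS, and overlapped Bcl11a. A further one at 91096558 to 91097284 had 28.1 and 13.3 in KO-iMOS and 28.2, 17.5 and 15.1 in WT-iMOS, without Bcl11a. Spi1 peaks at the Bcl11a locus were scattered over 7 regions, and none belonged to a class. At chromosome 11, 24077494 to 24077962, inside Bcl11a, no KO-iMOS list had a peak, and 2 of 3 WT-iMOS lists had one (8.28 and 6.99), overlapping Bcl11a binding. Both KO-iMOS lists had a peak somewhere at the Bcl11a locus, and 2 of 3 WT-iMOS lists did. Peak lists hold no expression, so they cannot show which gene KO-iMOS mice lack.

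The genes of 16 lists of blood lineages and cell functions were examined next. Their choice drew on earlier results of these data, and no list was tested as a set. Counts below moved with the same libraries as above, and are given without them where the lists are first counted. They stand against shares over all genes of 3.59% for KO-only, 0.923% for WT-only and 10.1% for loci in all 5 lists, and a count near these shares is not a result about a list. With 0.923% of genes WT-only, a count of 0 or 1 in lists of this size is near the share over all genes. None of 40 granulocyte and monocyte genes had a KO-only or a WT-only pattern at the locus, and 10 of 40 had a peak in all 5 lists. Among these 10 were Csf2rb, a subunit of the GM-CSF receptor, whose region had 28.3 and 10.4 in KO-iMOS and 28.7, 11.4 and 8.14 in WT-iMOS, and Itgam, the integrin chain CD11b, with 24.4 and 14.6 in KO-iMOS and 39.2, 9.18 and 18.6 in WT-iMOS. Without KO-iMOS replicate 2 there were 4 KO-only loci in this list, and without KO-iMOS replicate 1 there were 2 WT-only ones. Ncf4, a subunit of the phagocyte oxidase, was occupied in all 5 lists but held 2 WT-only regions. The one at chromosome 15, 78244667 to 78245316, had no KO-iMOS peak and 22.4, 13.6 and 11.2 in WT-iMOS, although both KO-iMOS T1 lists had a peak in it. Of interferon and inflammation genes 0 of 33 were KO-only, 0 of 33 WT-only and 12 of 33 (36.4%, against 10.1% of all genes) in all 5 lists, although 7 were KO-only without KO-iMOS replicate 2 and 2 were WT-only without KO-iMOS replicate 1. Irf1, an interferon-responsive transcription factor, had 38.4 and 26.0 in KO-iMOS and 41.6, 19.1 and 16.9 in WT-iMOS at a region 6130 bp outside the gene.

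Of stem and progenitor genes 11 of 33 (33.3%, against 10.1% of all genes) were in all 5 lists, and none was KO-only or WT-only as a locus. Without KO-iMOS replicate 2, and likewise without WT-iMOS replicate 1, 4 were KO-only, and at equal length 2 were. Meis1, a homeobox factor of stem cells, had 95.4 and 49.0 in KO-iMOS and 103.5, 60.0 and 47.1 in WT-iMOS at its strongest region. Single KO-only regions were nevertheless present at 4 of 33 loci (12.1%), against 6.10% of all genes. They lay inside Mecom, a zinc finger factor of stem cells (20.1 and 17.8 for the stronger of 2 regions, at chromosome 3, 30104732 to 30105514), Prdm16, another stem cell factor (22.8 and 19.4 at chromosome 4, 154531122 to 154531941), Myb, a progenitor factor (16.8 and 9.74), and Etv6, an ETS repressor (9.64 and 10.8). The stronger Mecom region and those at Prdm16 and Myb were also in both KO-iMOS T1 lists and no WT-iMOS T1 list, and the Etv6 region was in both KO-iMOS T1 lists and 1 WT-iMOS T1 list. A WT-only region was at 1 of 33, inside Hmga2, a chromatin protein gene of fetal progenitors (30.9, 16.7 and 11.4 in WT-iMOS), against 2.05% of all genes, and both KO-iMOS T1 lists had a peak in it. These regions were picked out by class after the values were seen. A locus takes in the whole gene, and gene length was not matched to that of all genes. The KO-only summits at Prdm16, Etv6 and Myb lay 105701, 49623 and 9522 bp from the nearest gene boundary. That of the stronger Mecom region lay 154063 bp from it.

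Erythroid genes held both KO-only and WT-only regions. At Epor, the erythropoietin receptor, a KO-only region inside the neighbouring Swsap1 had 28.9 and 8.38 in KO-iMOS and no WT-iMOS peak. Hemgn, a haematopoietic nuclear protein gene, was KO-only as a locus, but from a different region in each KO-iMOS list (14.8 in replicate 1 and 5.15 in replicate 2). Fech, the last enzyme of haem synthesis, was WT-only, with no KO-iMOS peak and 10.4, 10.9 and 9.24 in WT-iMOS at a region inside the gene that overlapped Bcl11a. In all 2 of 29 erythroid loci were KO-only (against 3.59% of all genes), 1 was WT-only (against 0.923%) and 4 had a peak in all 5 lists (against 10.1%), numbers too small to read as a result about the list. There were 5 KO-only ones when KO-iMOS replicate 2 or, separately, WT-iMOS replicate 1 was left out. Ank1, a red cell membrane protein gene, carried a region of each kind. The KO-only one had 6.68 and 9.42 in KO-iMOS and no WT-iMOS peak, and the WT-only one had no KO-iMOS peak and 68.8, 75.9 and 75.4 in WT-iMOS, with Bcl11a. Among megakaryocyte and platelet genes 1 of 28 was KO-only (against 3.59% of all genes), 0 were WT-only and 7 were in all lists (against 10.1%). The KO-only one was Clec1b, the platelet receptor CLEC-2, through a region inside the neighbouring Clec12b with 17.5 and 11.01 in KO-iMOS, although 2 of 3 WT-iMOS T1 lists had a peak there. At equal length 5 of 28 were KO-only (17.9%, against 2.58% of all genes). The number with full lists was 4 without KO-iMOS replicate 2 and 3 without WT-iMOS replicate 1.

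Of RNA splicing genes 5 of 30 (16.7%, against 3.59% of all genes) were KO-only loci, none was WT-only and 6 were in all 5 lists. Without KO-iMOS replicate 2 the KO-only number was 12, and without WT-iMOS replicate 1 it was 9. Hnrnpa1, an abundant splicing regulator, had a KO-only region inside the gene, 206 bp from its boundary, with 22.7 and 16.2 in KO-iMOS, which overlapped Bcl11a and was within 10 kb of the platelet factor gene Nfe2 too. That region also had a peak in 2 of 3 WT-iMOS T1 lists. At Srsf3, an SR splicing factor, a region with its summit 10041 bp outside the gene had 20.2 and 14.98 in KO-iMOS and was in both KO-iMOS T1 lists and no WT-iMOS T1 list. At Hnrnpc, an RNA-binding splicing factor, a region in the neighbouring Rpgrip1 had 19.3 and 10.2. A peak was also present there in 1 of 3 WT-iMOS T1 lists. The other 2 KO-only loci, Sf3a1 and U2af1, were named after their values were seen. A KO-only region inside Sf3a1 had 5.60 and 7.36, and U2af1 had its KO-iMOS peaks in separate regions. At equal length the count was 4 of 30 (13.3%). Among chromatin regulators 2 of 36 loci were KO-only (5.56%, against 3.59% of all genes), 0 were WT-only and 13 (36.1%, against 10.1%) were in all lists. The KO-only number was 10 without KO-iMOS replicate 2, 4 without WT-iMOS replicate 1 and 0 at equal length. Mbd3, a KO-only locus that encodes a subunit of the NuRD repressor complex, had a region just outside the gene with 13.1 and 11.9 that overlapped Bcl11a. In T1, 1 of 3 WT-iMOS lists had a peak in this region. That region is also within 10 kb of Tcf3, an E protein of lymphoid cells, and made it the single KO-only gene of the 36 lymphoid ones.

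In the remaining lists the KO-only and WT-only counts were 0 to 2, which is not read as a result beside the shares of 3.59% and 0.923% over all genes. Of 37 genes of Spi1 and its partner factors 1 was KO-only and 0 WT-only. It was Elf1, an ETS factor, with 11.8 and 13.5 in KO-iMOS inside the gene, and 10 of 37 were occupied in all 5 lists (against 10.1% of all genes). Of 33 cell cycle genes 2 were KO-only, the inhibitor Cdkn2c and the mitotic cyclin Ccnb1, each from regions found in 1 KO-iMOS list, and 8 were without KO-iMOS replicate 2. Of 24 survival and apoptosis genes 1 was KO-only, Bcl2a1d, of the anti-apoptotic A1 family whose near-identical copies make its mapping uncertain (12.1 and 7.52). Of 29 mitochondrial respiration genes 1 was KO-only, Cyc1, cytochrome c1, through a region in the neighbouring Maf1 (15.1 and 17.4), but 13 were without KO-iMOS replicate 2. Of 36 ribosomal protein genes 1 was WT-only, Rps14, with no KO-iMOS peak and 25.5, 17.8 and 10.1 in WT-iMOS, its summit 4 bp from the gene's boundary, but both KO-iMOS T1 lists had a peak there. Of 20 dendritic genes, and of 20 mast cell, basophil and eosinophil genes, none was KO-only or WT-only. None of 32 genes of non-haematopoietic tissues was occupied in all lists, against 10.1% of all genes. In that list 2 were WT-only (6.25%, against 0.923% of all genes) and 1 was at equal length, too few to read as a result. With full lists Lepr, the leptin receptor, was among them, with no KO-iMOS peak. Its values were 19.6, 26.9 and 11.2 in WT-iMOS at a region that overlapped Bcl11a. Without KO-iMOS replicate 1 the WT-only number of ribosomal protein genes was 3. Without KO-iMOS replicate 2 the KO-only number was 4 in each of the lymphoid, dendritic, ribosomal protein and Spi1 partner lists and 6 in the survival list.

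**Figure D5:**
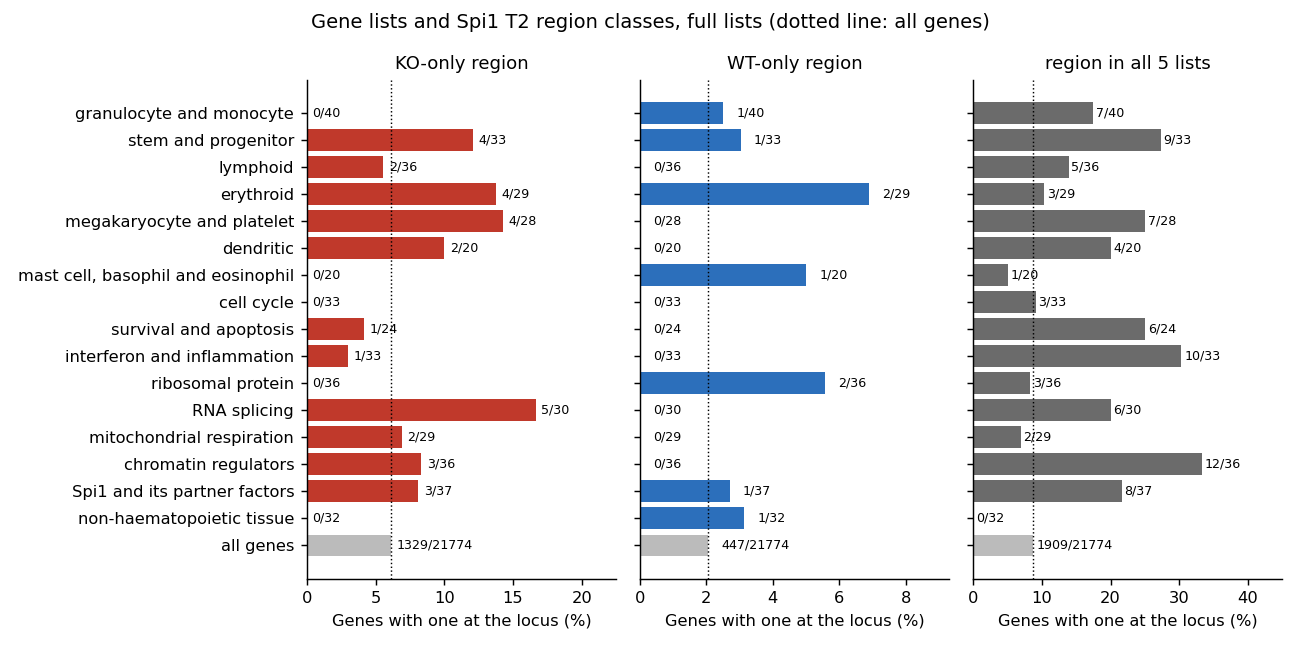
Percent of each list's genes with a KO-only region (left), a WT-only region (middle) or a region in all 5 lists (right) in the gene or within 10 kb, with counts beside the bars and the share over all genes as a dotted line. With full lists KO-only regions are at 5 of 30 splicing genes, against 6.10% of all genes, and at 3 of 30 against 3.70% at equal length. They are at none of 40 granulocyte and monocyte genes with full lists. The mast cell (20), cell cycle (33), ribosomal protein (36) and non-haematopoietic (32) lists have none either. Of the 40 granulocyte and monocyte genes 7 have a region in all 5 lists, against 8.77% of all genes.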

How the data were processed

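Spi1 and Bcl11a CUT&Tag peak lists of mouse MPP3 cells were used as the authors deposited them, 1 list per library. The submitters' processing notes name the build mm10 and the tools MACS2, Bowtie2 and SAMtools, without versions. Each deposited peak carries a score, a fold enrichment, and −log10 p and −log10 q values computed by the authors' peak caller. Read counts are not in these lists, so depth is unknown.

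Groups were taken from the titles and genotype labels. Peaks on assembled chromosomes were kept. Lists were merged where they shared at least 1 bp, and genes came from RefSeq on GRCm38.p6 (21774 protein-coding genes, 17492 of them with a listed promoter). A Bcl11a T2 region needed a peak in at least 2 of 3 lists. Per-library shares were compared by the exact two-sided permutation test with Benjamini-Hochberg adjustment, and intervals are exact binomial (Clopper-Pearson, 95%). Lists were also cut to equal length, 4926 peaks in T2 and 6648 in T1. The code was tested on simulated lists and used scipy 1.17.1 and pandas 2.3.3 under Python 3.11.15, and matplotlib 3.10.9 for plots.

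Members and gene lists were chosen with earlier results of these data known; 469 of 472 genes in 16 lists matched. From each list, up to 3 KO-only and 3 WT-only genes were named by within-list rank of −log10 p, besides Spi1 and Bcl11a, and 8, 8 and 5 leading regions of the KO-only, WT-only and all-list classes. Genes of a class named outside this rule are said to be so or are examples of loci occupied in all lists, picked after their values were seen. Some genes that the rule names are not reported here. Alternatives were the −log10 q threshold, the overlap, the distance windows, the Bcl11a definition, single libraries left out, and, added after the data were seen, autosomes, gene starts, summit windows and strong regions.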

Additional observations from a re-analysis of the deposited data

How the results depend on the processing

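Of 180 alternative values over 16 results, 144 kept their direction or size, 35 moved and 1 reversed. Differences between KO-iMOS and WT-iMOS were counted as kept when their direction held, however much they shrank. Without KO-iMOS T2 replicate 1, the difference in genes with a peak fell from 11.9 to 0.424 percentage points. That in length covered by peaks fell from 2.12 to 0.0101 Mb. Both were counted as kept, so for such differences the count does not speak to size. With lists of equal length there were 732 KO-only regions, 6.15% of them overlapping Bcl11a, and the WT-only shares were 11.25% near a boundary and 59.1% overlapping Bcl11a. Peaks with a −log10 q of at least 5 gave a WT-only Bcl11a share of 76.5%. A 3 kb window gave boundary shares of 43.2% for KO-only and 9.14% for WT-only regions, and gene starts in place of both boundaries gave 32.9% and 2.14%. Bcl11a peaks of any list overlapped 7.14% of KO-only and 87.6% of WT-only regions. Requiring 2 of 3 WT-iMOS lists gave 1771 WT-only regions, 43.9% overlapping Bcl11a.

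Leaving out single libraries gave 1252 to 7010 KO-only and 708 to 1319 WT-only regions, and 794 to 3470 KO-only and 209 to 648 WT-only genes. The KO-only shares were 33.6 to 38.3% near a boundary and 1.44 to 3.99% overlapping Bcl11a, and the WT-only shares 3.43 to 11.4% and 46.4 to 69.4%. The KO-iMOS minus WT-iMOS difference in list length was −1590 to 6887 peaks, reversed without KO-iMOS replicate 1. The cause of these changes was not tested. The differences per library were 10.9 to 13.8 percentage points near a boundary and −18.1 to −9.16 for Bcl11a overlap.

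With a replicate block over the numbers 1 and 2 the differences were 1147.5 peaks (exact p = 1), 10.9 percentage points near a boundary and −10.9 for Bcl11a overlap (exact two-sided sign-flip p = 0.5 each, the smallest that 2 pairs allow). Correlations of deviations were −0.0889 and −0.0290 for same-numbered libraries and −0.0763 to 0.0889 for others. With 2 KO-iMOS libraries these come in mirrored pairs, so they do not show whether numbers pair libraries, and the labels name no shared animal or day.

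No test of 2 against 3 libraries can pass 0.05. Depth is unknown, a missing peak is not an absence of binding, and sites just below the authors' threshold are counted as missing. The X chromosome share, peak-name prefixes, narrowest peak and, with full lists, median peak width differ between the groups without overlap, while list lengths overlap. Peaks off the assembled chromosomes were 68 and 35 in KO-iMOS T2, against 135, 138 and 142 in WT-iMOS T2. The highest −log10 p was 5401 and 3783 in KO-iMOS T2, against 8914, 9126 and 9150 in WT-iMOS T2. In T1, peaks off the assembled chromosomes were 64 and 69 in KO-iMOS, against 145, 133 and 147 in WT-iMOS. Genotype therefore cannot be told apart from any other difference between the libraries of these groups, such as their preparation.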
